A study of Mus musculus with 46 samples.

Results

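The genes compared here are the nuclear subunits of complexes III, IV and V of the mitochondrial respiratory chain, with cytochrome c. They were taken from both count tables by symbol: Uqcr, Cox4i, Cox5, Cox6, Cox7, Cox8 or Atp5 at the start of the symbol, or the symbols Cyc1 and Cycs, without those marked -ps as pseudogenes. Of 54 genes that match these symbols, 7 were dropped by that mark and 4 were in neither table (Cox6b2, Cox7b2, Cox8c and a second Atp5o identifier), which left 43 genes measured in both experiments. Complex III gave 9 of them, complex IV 16 and complex V 17, and Cycs is counted alone. Complex III passes electrons from ubiquinol to cytochrome c, complex IV passes them on to oxygen, and complex V makes ATP. Some complex IV subunits have a muscle isoform (Cox6a2, Cox7a1, Cox8b) and a ubiquitous one (Cox6a1, Cox7a2, Cox8a). Cox7a2l acts in supercomplex assembly, Cox4i2 is a lung form, Atp5s is a coupling factor and no constant subunit, and Cox6c2 is annotated as a processed pseudogene; they are counted as members because the symbols match.

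Skeletal muscle of wild-type (WT) mice and of mice that lack Actn3 throughout the body (KO), all C57BL6, was sequenced in bulk as total RNA. In the first experiment, male mice aged 8 to 10 weeks underwent orchidectomy (ORX) or sham surgery, and gastrocnemius was taken 12 weeks later, which gave 5 KO-ORX libraries and 6 in each of WT-sham, KO-sham and WT-ORX; a 6th labelled KO-ORX mouse is without counts. In the second, spinalis of female mice was taken 6 weeks after an implant at 4 to 5 weeks of age, empty or with 10 mg of dihydrotestosterone (DHT), with 6 libraries in WT-DHT and KO-DHT and 5 in WT-empty and KO-empty. Muscle, sex and age differ together between the experiments, so that their levels are set side by side without a test, and DHT libraries are numbered by column order within a group. A fall in the RNA per fibre and a smaller share of the fibres that hold most of it cannot be told apart in bulk muscle.

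Total counts (lowest, median, highest) were 43.4, 47.1 and 50.3 M in WT-sham, 39.9, 45.6 and 55.4 in WT-ORX, 29.5, 34.3 and 37.5 in KO-sham, and 26.7, 41.6 and 48.5 in KO-ORX. In spinalis they were 37.3, 47.0 and 51.2 M in WT-empty, 34.8, 52.0 and 53.9 in WT-DHT, 42.5, 44.1 and 47.8 in KO-empty, and 34.9, 44.2 and 51.7 in KO-DHT. As a check of the genotype labels, Actn3 lay between 12.55 and 13.34 log2 CPM in the WT libraries of both experiments and between 5.10 and 6.38 in the KO libraries, so that every library matched its label. All 6 skeletal muscle markers were measured in both muscles, Ttn the most abundant of them, and of 4 heart markers Myh6 alone was in the tables, at 1.00 to 2.15 CPM in the group means. The 43 genes together took a median of 1.47% of the counts in WT-sham, 1.46% in WT-ORX, 1.70% in KO-sham and 1.49% in KO-ORX. In spinalis the medians were 1.20% in WT-empty, 1.23% in WT-DHT, 1.32% in KO-empty and 1.55% in KO-DHT.

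Some libraries stood apart before any comparison. WT-ORX replicates 3 and 4 gave 0.638 and 0.607% of their counts to 184 genes of under 600 bases, against 0.517 to 0.566% in the other 4 WT-ORX libraries, and many members are short. KO-DHT replicate 6 had 252.6 CPM summed over 5 brown adipocyte markers, against 17.5 to 25.1 CPM in the other 5 KO-DHT libraries and 10.9 to 73.7 CPM in the other groups of spinalis, with Ucp1 at 157 CPM and Cidea at 60.7 CPM. Cox8a (5.57) and Cox6a1 (5.30) had their highest log2 CPM of all spinalis libraries in that one. KO-empty replicate 5 had a median log2 CPM over the members of 7.89, and the next KO-empty library had 7.71. In spinalis, WT-empty replicates 2 and 3, WT-DHT replicates 5 and 6 and KO-DHT replicates 2 and 3 had 3.44 to 5.80% of their counts from mitochondrial DNA, the lowest shares of their groups, and the other 16 libraries, all 5 of KO-empty among them, had 6.07 to 15.2%. Across groups no gap parts the 6 from the rest, and the line between them was drawn after the shares were seen. Within groups there was a gap. The shares were 3.44 and 3.95% against at least 6.07% in the rest of WT-empty. They were 5.07 and 5.33% against at least 8.61% in WT-DHT, and 5.36 and 5.80% against at least 9.23% in KO-DHT. The member Atp5j was lower in each of these 6 libraries (6.56 to 6.89 log2 CPM) than in any other (6.90 to 7.62), again without a gap across groups. Uqcrq and Atp5g3 were low in them with some overlap across groups. Within WT-empty, WT-DHT and KO-DHT, each of these genes was lower in these libraries than in any other of the group. KO-sham replicate 1 had 0.421% of its counts in the short genes, and the other KO-sham libraries had at least 0.505%; without it 9 members passed with ORX in KO and 5 between KO-sham and WT-sham. Many of the results that rest on these libraries are given with and without them, a choice made after their levels were seen.

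Levels of different genes were compared per kilobase of annotated exon. In complex III, Uqcr10 had the highest mean (693 CPM per kb in gastrocnemius, 560 in spinalis) and Cyc1, the heme subunit cytochrome c1, the lowest (136 and 126). In complex IV, Cox8b was highest in gastrocnemius (1273 CPM per kb) and Cox6c in spinalis (814), while Cox4i2 was lowest in both (2.04 and 1.61). Within complex V, Atp5e was highest in gastrocnemius (1158 CPM per kb) and Atp5b in spinalis (1167), and Atp5g2 was lowest (3.51 and 3.02). Cycs stood at 14.9 and 12.2 CPM per kb. Of each isoform pair the muscle isoform was the more abundant: Cox6a2 had 649 CPM per kb in gastrocnemius and Cox6a1 22.4, Cox7a1 had 722 and Cox7a2 397, and Cox8b had 1273 and Cox8a 37.7. In spinalis Cox6a2 had 540 CPM per kb and Cox6a1 32.3, Cox7a1 had 552 and Cox7a2 277, and Cox8b had 803 and Cox8a 51.3. Near-identical copies elsewhere in the genome (at least 95% over at least 150 bases) exist for 14 members, with 8 of them for Atp5l, 3 each for Uqcrb, Atp5h and Cycs, and 2 each for Uqcr11, Cox6c and Cox7b, so that their counts, and the ranks per kb, are uncertain. The annotated spans of Uqcrb, Uqcrc2, Cox4i1, Cox5a, Cox6a2, Cox6c, Atp5a1, Atp5d, Atp5f1, Atp5j, Atp5l and Atp5o overlap a gene on the opposite strand, and the strand setting of the counting is not stated.

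After ORX in WT, 5 of the 43 members passed the edgeR test (adjusted p at most 0.01), 0 higher and 5 lower, which is 11.6% of them against 5.45% of all 17514 genes (3.41% lower). By sign, 28 were lower and 15 higher, with a median log2 fold change of −0.05 and a range from −0.31 to 0.24; library-size scaling left 22 lower and 2 called. Without WT-ORX replicates 3 and 4, 2 members passed and the median was −0.13. After ORX in KO, 12 of 43 passed, all lower, or 27.9% against 5.57% of all genes (3.58% lower). Their sign was lower in 42 of 43, the median −0.19 and the range from −0.41 to 0.11. Library-size scaling shifts the median of all genes in this comparison by 0.11, and under it 38 were lower, the median was −0.09 and 2 passed. In sham-operated mice, 5 of 43 were called higher in KO and 0 lower, or 11.6% against 5.3% of all genes (2.48% higher); 41 had a higher sign, and the median was 0.18. Between KO-ORX and WT-ORX, 0 of 43 passed by edgeR against 3.8% of all genes, with 5 at an unadjusted p under 0.05, 1 called by DESeq2 and 0 by limma-voom. The comparisons of ORX in KO and of genotype in sham-operated mice share the KO-sham libraries, so that their opposite signs are not independent.

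With DHT in WT, 4 of the 43 members passed by edgeR, 3 higher and 1 lower, which is 9.3% against 11.3% of all 16987 genes (6.63% higher, 4.64% lower) and so is near the background. By sign 35 were higher, with a median of 0.12, and library-size scaling brought the median to 0.05 and the number called to 2. With DHT in KO, 8 of 43 were called higher and 0 lower, or 18.6% against 4.62% of all genes (2.86% higher). Here 42 of 43 had a higher sign, and the median was 0.20, or 0.17 with library-size scaling. This count hung on single libraries: without KO-empty replicate 5, 13 members passed, without KO-empty replicate 1, 2 or 4 or KO-DHT replicate 1 or 3 it was 3, without KO-empty replicate 3 or KO-DHT replicate 2 it was 4, and a fit of the compared groups alone gave 5. Between KO and WT with empty implants, 0 of 43 passed by edgeR against 4.25% of all genes, with 15 at an unadjusted p under 0.05, 1 called by DESeq2 and 0 by limma-voom. Between KO and WT with DHT, 16 of 43 were called higher and 0 lower, or 37.2% against 11.6% of all genes (5.13% higher). In that comparison 41 had a higher sign, the median was 0.25 and the range from −0.22 to 0.58, and library-size scaling gave a median of 0.34 and 22 called. Without the 6 libraries of low mitochondrial share, 1 member passed with DHT in WT (median 0.13), 3 with DHT in KO (0.22), 0 with empty implants (0.17) and 13 between KO-DHT and WT-DHT (0.29). The comparisons of DHT in KO and of genotype with DHT share the KO-DHT libraries.

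**Figure D1:**
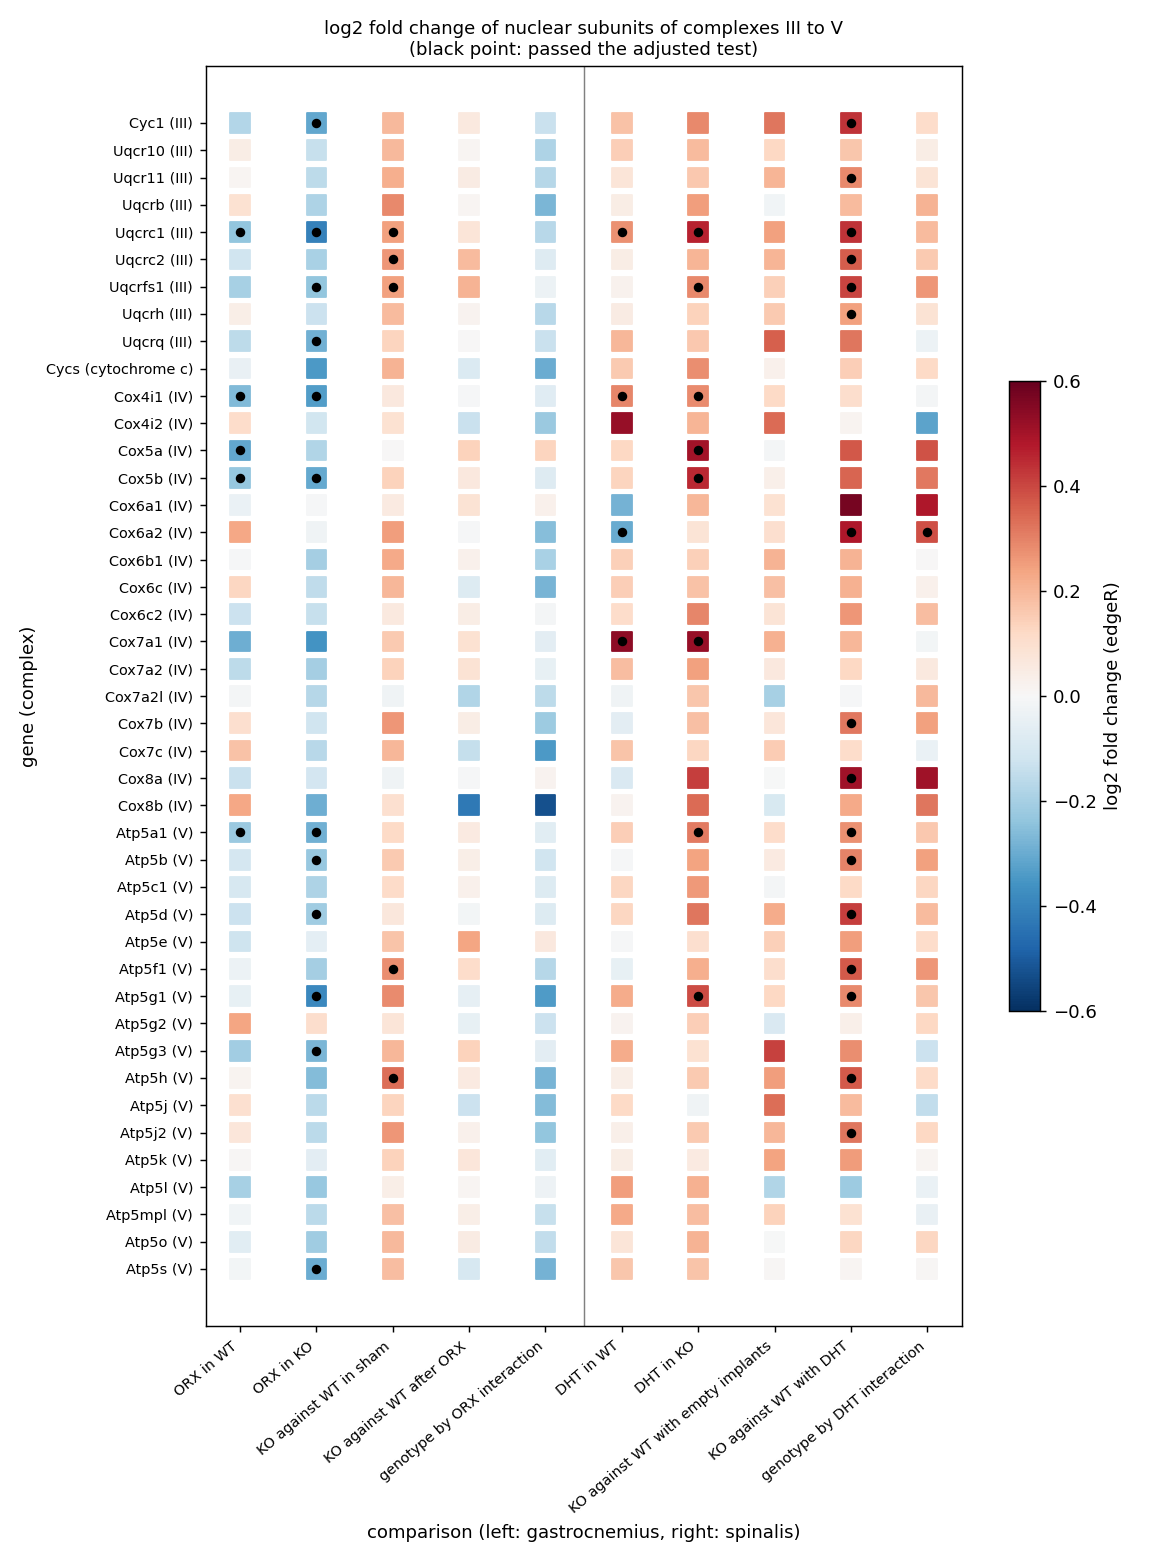
Log2 fold change of the 43 members in the 10 comparisons, by complex. Black points mark the members that passed the edgeR test; library-size scaling moves the ORX comparison in KO upward by 0.11.

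Complex III was followed through Uqcrc1, its core protein 1 (chromosome 9 of GRCm38, from 108936633 to 108949623), which passed in more comparisons than any other member. Its log2 CPM (lowest, median, highest) was 8.86, 9.04 and 9.21 in WT-sham, 8.75, 8.82 and 8.92 in WT-ORX, and 9.22, 9.30 and 9.37 in KO-sham, while the 5 KO-ORX libraries had 8.96, 8.90, 9.02, 8.84 and 8.75. All KO-ORX libraries lay below all KO-sham libraries, all KO-sham libraries lay above all WT-sham libraries by a narrow margin, and WT-ORX overlapped with WT-sham at its upper end. Uqcrc1 fell by 0.41 with ORX in KO (SE 0.06, adjusted p = 3.5e-05 by edgeR). In WT it fell by 0.24 with ORX (adjusted p = 0.00495, passing in 18 of the 23 fits without 1 library), and was at −0.21 without WT-ORX replicates 3 and 4 (adjusted p = 0.0452), which no longer passes. Uqcrc1 was higher in KO-sham than in WT-sham by 0.25 (SE 0.06, adjusted p = 0.00391, passing in 19 of the 23 fits without 1 library). The interaction of genotype and ORX was −0.17 for Uqcrc1 (adjusted p = 0.509), so that no unequal response of the genotypes was detected.

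In spinalis, Uqcrc1 was at 8.87, 9.04, 8.84, 8.72 and 8.89 log2 CPM in the WT-empty libraries and at 9.06, 9.10, 9.17, 8.88 and 9.35 in the KO-empty libraries, and had 8.96, 9.17 and 9.24 (lowest, median, highest) in WT-DHT and 9.48, 9.60 and 9.65 in KO-DHT. Every KO-DHT library was above every KO-empty and every WT-DHT library, and WT-DHT overlapped with WT-empty in 1 library of each. Uqcrc1 rose by 0.46 with DHT in KO (SE 0.07, adjusted p = 1.5e-04 by edgeR) and by 0.27 in WT (SE 0.07, adjusted p = 0.00892), where it passed in 5 of the 22 fits without 1 library. Between KO-DHT and WT-DHT it differed by 0.43 (SE 0.07, adjusted p = 5.5e-05). Its interaction of genotype and DHT was 0.19 (adjusted p = 0.398).

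Cyc1 had 7.49, 7.73 and 7.85 log2 CPM (lowest, median, highest) in WT-sham, 7.43, 7.51 and 7.65 in WT-ORX, 7.82, 7.91 and 7.95 in KO-sham, and 7.63, 7.70, 7.67, 7.45 and 7.50 in the KO-ORX libraries. All KO-ORX libraries lay below all KO-sham libraries, and the WT groups overlapped. It fell by 0.31 with ORX in KO (SE 0.06, adjusted p = 8.3e-04 by edgeR), and the value in WT was −0.18 (adjusted p = 0.0424, not called). In spinalis Cyc1 had 7.40, 7.21, 7.13, 7.25 and 7.38 log2 CPM in WT-empty, 7.39, 7.64, 7.66, 7.34 and 7.89 in KO-empty, 7.33, 7.43 and 7.66 (lowest, median, highest) in WT-DHT, and 7.69, 7.88 and 8.10 in KO-DHT. Every KO-DHT library was above every WT-DHT library, whereas the KO-DHT and KO-empty libraries overlapped. The difference between KO-DHT and WT-DHT was 0.43 (SE 0.09, adjusted p = 6.5e-04), and the change with DHT in KO was 0.29 (adjusted p = 0.0407, not called), or 0.37 without KO-empty replicate 5 (adjusted p = 0.00643), which passes.

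By sign, 9 of 9 complex III members were lower with ORX in KO (4 called, against 3.58% of all genes) and 9 of 9 were higher in KO-sham than in WT-sham (3 called, against 2.48%), signs that were 9 of 9 with library-size scaling as well. With ORX in WT 5 of 9 were lower (1 called, against 3.41%) under either scaling. The other complex III members called with ORX in KO were Uqcrfs1, the iron-sulfur protein, at −0.24 (adjusted p = 0.00811), and the small subunit Uqcrq at −0.29 (adjusted p = 0.00462). Of the other members called in sham-operated mice, Uqcrc2, core protein 2, was at 0.27 (adjusted p = 0.00156) and Uqcrfs1 at 0.24 (adjusted p = 0.00422), and KO-sham overlapped with WT-sham for both. In spinalis 9 of 9 were higher with DHT in KO (2 called, against 2.86% of all genes) and 9 of 9 were higher in KO-DHT than in WT-DHT (6 called, against 5.13%), again 9 of 9 with library-size scaling. With DHT in WT 9 of 9 were higher (1 called, against 6.63%), and 5 of 9 with library-size scaling. For Uqcrc2, the log2 CPM was 8.16, 8.26 and 8.34 (lowest, median, highest) in WT-DHT and 8.51, 8.6035 and 8.71 in KO-DHT. The libraries of these groups did not overlap, and the log2 fold change was 0.36 (SE 0.05, adjusted p = 3.1e-05 by edgeR). The remaining members called between KO-DHT and WT-DHT were Uqcrfs1 at 0.40, Uqcr11 at 0.29 and Uqcrh at 0.24, each without overlap between the groups.

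Cytochrome c of somatic tissue, Cycs (chromosome 6, from 50562563 to 50566538), was called in 0 of 10 comparisons by edgeR, though some alternatives called it. Its log2 CPM was 5.55, 5.70 and 5.97 (lowest, median, highest) in KO-sham and 5.33, 5.63, 5.40, 5.21 and 5.36 in the KO-ORX libraries. KO-ORX replicate 2 lay within the range of KO-sham and the other 4 lay below it, a log2 fold change of −0.34 (SE 0.10, adjusted p = 0.022). It passed without KO-ORX replicate 2 (−0.41, adjusted p = 0.00911), without WT-ORX replicate 6 (adjusted p = 0.00975) and by DESeq2 (adjusted p = 0.00579). With DHT in KO it went from 5.09, 5.09, 5.11, 5.23 and 5.21 in KO-empty to 5.23, 5.41 and 5.64 (lowest, median, highest) in KO-DHT. These ranges touch without overlap, and the log2 fold change of 0.28 (SE 0.07, adjusted p = 0.0133) did not pass. It did without KO-DHT replicate 4 (0.32, adjusted p = 0.00665), without KO-DHT replicate 5 (0.31, adjusted p = 0.00874) and by DESeq2 (adjusted p = 0.00522). Cycs has 3 near-identical copies in the genome, none of them in the count tables.

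Cox4i1, subunit 4 of complex IV (chromosome 8, from 120668222 to 120674207), had 8.87, 9.001 and 9.10 log2 CPM (lowest, median, highest) in WT-sham, 8.64, 8.74 and 8.84 in WT-ORX, 8.93, 9.06 and 9.18 in KO-sham, and 8.73, 8.77, 8.91, 8.59 and 8.61 in the KO-ORX libraries. In each genotype every ORX library lay below every sham library. Cox4i1 fell by 0.26 with ORX in WT (SE 0.06, adjusted p = 0.003 by edgeR) and by 0.33 in KO (SE 0.06, adjusted p = 6.3e-04). Without WT-ORX replicates 3 and 4 the value in WT was −0.30 (adjusted p = 0.00451). In spinalis it had 8.61, 8.74, 8.49, 8.46 and 8.53 log2 CPM in WT-empty, 8.55, 8.62, 8.81, 8.52 and 8.90 in KO-empty, 8.76, 8.89 and 8.92 (lowest, median, highest) in WT-DHT, and 8.89, 8.99 and 9.05 in KO-DHT. All WT-DHT libraries were above all WT-empty libraries, and KO-DHT overlapped with KO-empty replicate 5. With DHT it rose by 0.29 in WT (SE 0.07, adjusted p = 0.00297) and by 0.28 in KO (SE 0.07, adjusted p = 0.0088). The value in KO passed in 6 of the 22 fits without 1 library, and was 0.34 without KO-empty replicate 5 (adjusted p = 0.00162). Its interactions were −0.07 with ORX and −0.01 with DHT (adjusted p = 0.828 and 0.976).

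In complex IV, 3 of 16 members passed with ORX in WT (lower, against 3.41% of all genes), 2 with ORX in KO (lower, against 3.58%) and 0 between KO-sham and WT-sham by edgeR. Cox5a and Cox5b, which sit on the matrix side of the complex, passed in both experiments. Cox5a was at −0.31 with ORX in WT (adjusted p = 0.0018 by edgeR), and at −0.31 with an adjusted p of 0.0113 without WT-ORX replicates 3 and 4. For ORX in KO it did not pass (−0.18), but did without KO-ORX replicate 3, its high library (−0.25, adjusted p = 0.00799), and its interaction of genotype and ORX was 0.13 (adjusted p = 0.679). Cox5b fell with ORX by 0.23 in WT (adjusted p = 0.00909) and by 0.31 in KO (adjusted p = 0.00142), and the value in WT was −0.20 (adjusted p = 0.0647) without the 2 WT-ORX libraries and passed in 8 of the 23 fits without 1 library. With DHT in KO, Cox5a had 6.26, 6.28, 6.27, 6.18 and 6.66 log2 CPM in KO-empty and 6.52, 6.84 and 7.0003 (lowest, median, highest) in KO-DHT. KO-empty replicate 5 was high and KO-DHT replicate 6 was low, and these 2 libraries made the groups overlap. Cox5a rose by 0.51 (SE 0.11, adjusted p = 0.00422 by edgeR), or by 0.56 without KO-DHT replicate 6 (adjusted p = 0.00156) and 0.60 without KO-empty replicate 5 (adjusted p = 9.4e-04), and it passed in 16 of the 22 fits without 1 library. Cox5b rose by 0.45 (SE 0.10, adjusted p = 0.0063), or by 0.54 without KO-empty replicate 5 (adjusted p = 0.00133), again the high one of its group, and it passed in 14 of those 22 fits. In complex IV, 16 of 16 members had a lower sign with ORX in KO and 14 of 16 with library-size scaling, and 10 of 16 had a lower sign with ORX in WT (median −0.03), where library-size scaling turned the median to 0.01. With DHT in KO 16 of 16 had a higher sign under either scaling, and 4 passed, against 2.86% of all genes. Between KO-DHT and WT-DHT 15 of 16 had a higher sign, and 3 were called, against 5.13% of all genes. These were Cox6a2, Cox8a and Cox7b, the last at 0.32 (adjusted p = 0.00141 by edgeR).

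The muscle isoform Cox7a1 (chromosome 7, from 30184144 to 30186078) had the smallest p of all members called with DHT in WT. Its log2 CPM was 7.51, 7.57, 7.22, 7.28 and 7.04 in the WT-empty libraries, 7.71, 7.88 and 8.00 (lowest, median, highest) in WT-DHT, 7.38, 7.42, 7.61, 7.52 and 7.81 in KO-empty, and 7.99, 8.04 and 8.22 in KO-DHT. In each genotype all DHT libraries lay above all libraries with empty implants. Cox7a1 rose by 0.54 with DHT in WT (SE 0.09, adjusted p = 6.9e-05 by edgeR) and by 0.52 in KO (SE 0.09, adjusted p = 3.2e-04), and its interaction was −0.02 (adjusted p = 0.975). In gastrocnemius it had 7.96, 8.25 and 8.39 (lowest, median, highest) in WT-sham, 7.59, 7.81 and 8.22 in WT-ORX, 8.18, 8.36 and 8.53 in KO-sham, and 7.97, 8.09, 8.25, 7.85 and 7.89 in the KO-ORX libraries. The high values of WT-ORX were those of replicates 3 and 4, and KO-ORX replicate 3 lay within the range of KO-sham. Cox7a1 was at −0.29 with ORX in WT (adjusted p = 0.0497) and at −0.36 in KO (adjusted p = 0.021), neither of which passed. Without WT-ORX replicates 3 and 4 the values were −0.46 in WT (adjusted p = 7.8e-04) and −0.36 in KO (adjusted p = 0.00396), which both pass.

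The log2 ratio of Cox7a1 to Cox7a2 within a library was 0.02, 0.05, −0.08, 0.04 and −0.17 in WT-empty, 0.23, 0.33 and 0.47 (lowest, median, highest) in WT-DHT, 0.10, 0.05, 0.08, 0.07 and 0.34 in KO-empty, and 0.35, 0.41 and 0.48 in KO-DHT. DHT and empty libraries did not overlap in either genotype, and KO-empty replicate 5 stood apart from its group. With DHT the ratio rose by 0.36 in WT and by 0.28 in KO, each with p = 0.00216 by exact permutation, the smallest that these group sizes can give (adjusted p = 0.026 over 24 tests of 3 ratios). Between KO-empty and WT-empty it differed by 0.15 (p = 0.00794 by exact permutation, the smallest possible; adjusted p = 0.0476). Without KO-empty replicate 5 this difference was 0.10 (adjusted p = 0.199), which does not pass, and it passed in 3 of the 10 tests without 1 library. In gastrocnemius the ratio (lowest, median, highest) was 0.11, 0.16 and 0.28 in WT-sham, −0.06, 0.02 and 0.14 in WT-ORX, and −0.04, 0.22 and 0.28 in KO-sham, and the KO-ORX libraries had 0.01, 0.01, 0.21, 0.03 and −0.10. WT-ORX replicate 4 was the one WT-ORX library within the range of WT-sham, and 4 of 5 KO-ORX libraries lay within the range of KO-sham. The low end of KO-sham was replicate 3 alone (−0.040, next 0.188). Of the KO-ORX libraries only replicate 3 (0.21) lay above that next value, so that this overlap in KO rests on 1 KO-sham library. The ratio fell by 0.14 with ORX in WT (p = 0.00433 by exact permutation, adjusted p = 0.0346) and was at −0.12 without WT-sham replicate 5 (adjusted p = 0.0519), and the value with ORX in KO was −0.16 (adjusted p = 0.199).

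Cox6a2, the muscle isoform of subunit 6a (chromosome 7, from 128205435 to 128206387), overlaps Itgad, which runs the other way. In log2 CPM it had 8.69, 8.65, 8.45, 8.32 and 8.45 in WT-empty, 8.09, 8.21 and 8.38 (lowest, median, highest) in WT-DHT, 8.48, 8.62, 8.54, 8.51 and 8.90 in KO-empty, and 8.66, 8.70 and 8.76 in KO-DHT. All KO-DHT libraries were above all WT-DHT libraries, and WT-DHT was below WT-empty except for 1 library of each. KO-DHT lay within the range of KO-empty only through KO-empty replicate 5 (8.90), and above the other KO-empty libraries (8.48 to 8.62). Cox6a2 fell by 0.30 with DHT in WT (SE 0.08, adjusted p = 0.00567 by edgeR, passing in 16 of the 22 fits without 1 library), and the value in KO was 0.08 (adjusted p = 0.548). Between KO-DHT and WT-DHT it differed by 0.48 (SE 0.07, adjusted p = 2.8e-05), or by 0.49 without KO-DHT replicate 6 (adjusted p = 7.0e-05). The interaction of genotype and DHT was 0.38 (SE 0.11, adjusted p = 0.0485), and Cox6a2 was thus 1 of 43 members called for it, or 2.33% against 3.24% of all genes (1.34% higher), which is near the background. The same interaction was 0.39 without KO-DHT replicate 6 (adjusted p = 0.0578) and 0.47 without KO-empty replicate 5 (adjusted p = 0.0047), and it passed in 3 of the 22 fits that each left out 1 library. In gastrocnemius Cox6a2 passed in 0 comparisons by edgeR; between KO-sham and WT-sham it was at 0.25 (adjusted p = 0.0575), with every KO-sham library above every WT-sham library. The log2 ratio of Cox6a2 to Cox6a1 had means of 4.94 in WT-sham, 5.20 in WT-ORX, 5.15 in KO-sham and 5.13 in KO-ORX, and of 4.37 in WT-empty, 4.34 in WT-DHT, 4.37 in KO-empty and 4.31 in KO-DHT. No comparison of this ratio passed, and the smallest p was 0.026 by exact permutation in sham-operated mice (adjusted p = 0.125).

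Cox8b, the muscle isoform of subunit 8 (chromosome 7, from 140898945 to 140900446), had 8.61, 8.79 and 8.97 log2 CPM (lowest, median, highest) in WT-sham, 8.73, 8.85 and 9.41 in WT-ORX, 8.64, 8.91 and 9.05 in KO-sham, and 8.52, 8.56, 8.70, 8.48 and 8.69 in the KO-ORX libraries. Every KO-ORX library was below every WT-ORX library, and the 2 highest WT-ORX values, 9.41 and 9.35, were those of replicates 3 and 4. Between KO-ORX and WT-ORX the log2 fold change was −0.43 (SE 0.11, adjusted p = 0.0106 by edgeR), or −0.21 without these 2 libraries (adjusted p = 0.121). With ORX in WT it was 0.23 (adjusted p = 0.164), or 0.01 without them (adjusted p = 0.964). The log2 ratio of Cox8b to Cox8a had means of 4.34 in WT-sham, 4.69 in WT-ORX, 4.46 in KO-sham and 4.28 in KO-ORX, and of 3.39 in WT-empty, 3.52 in WT-DHT, 3.31 in KO-empty and 3.26 in KO-DHT. It passed in no comparison; between KO-ORX and WT-ORX it was −0.41 (p = 0.0693 by exact permutation, adjusted p = 0.208), or −0.12 without WT-ORX replicates 3 and 4 (adjusted p = 0.286). Cox8a, the ubiquitous isoform, had 4.43, 4.58 and 5.00 log2 CPM (lowest, median, highest) in WT-DHT and 4.70, 5.11 and 5.57 in KO-DHT. Single libraries of each group lay within the range of the other, and the highest value was that of KO-DHT replicate 6. The log2 fold change was 0.51 (SE 0.13, adjusted p = 0.00621 by edgeR), or 0.40 without that library (adjusted p = 0.023), which does not pass, and the call held in 14 of the 22 fits without 1 library. Cox6a1 in the same comparison was at 0.58 (SE 0.18, adjusted p = 0.0283, not called), or at 0.33 without that library (adjusted p = 0.118).

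**Figure D2:**
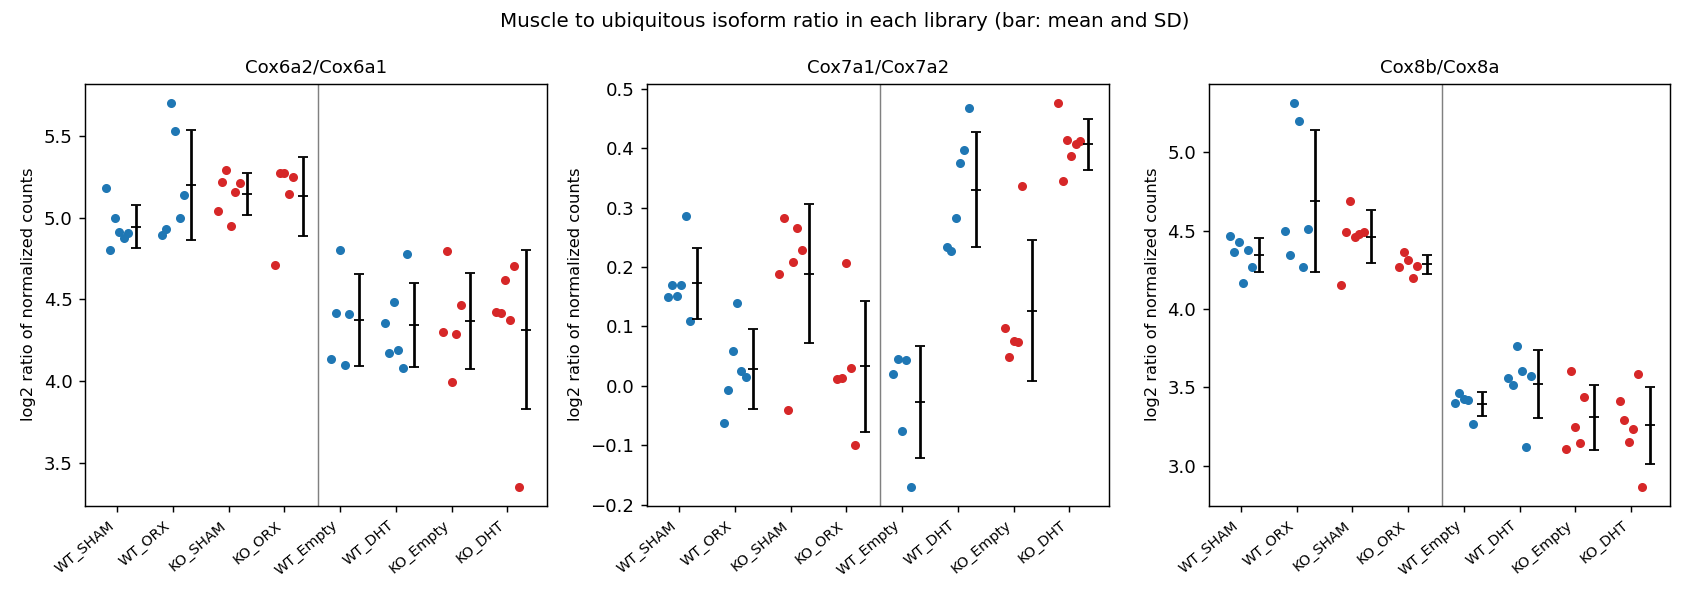
Log2 ratio of the muscle to the ubiquitous isoform in each library, with mean and SD of each group. For Cox6a2 to Cox6a1 and Cox8b to Cox8a, replicates 3 and 4 are the high WT-ORX libraries, and replicate 6 is the lowest KO-DHT library.

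Complex V had 6 of 17 members called lower with ORX in KO, against 3.58% of all genes: 3 of 5 in the F1 part, 2 of 3 in the c ring, 0 of 8 in the stalk and membrane part, and Atp5s. The subunit alpha gene Atp5a1 fell with ORX by 0.29 in KO (SE 0.06, adjusted p = 0.00129 by edgeR) and by 0.22 in WT (SE 0.05, adjusted p = 0.00689), where it passed in 14 of the 23 fits without 1 library and was at −0.21 without WT-ORX replicates 3 and 4 (adjusted p = 0.0383). Of the c ring, Atp5g1 had 8.39, 8.56 and 8.69 log2 CPM (lowest, median, highest) in KO-sham and 8.20, 8.42, 8.16, 8.03 and 8.05 in the KO-ORX libraries. Only KO-ORX replicate 2 reached into the range of KO-sham. Atp5g1 fell by 0.39 (SE 0.09, adjusted p = 0.00533, passing in 15 of the 23 fits without 1 library), Atp5g3 by 0.27 (adjusted p = 0.00993), Atp5b by 0.23 (adjusted p = 0.00576) and Atp5d by 0.21 (adjusted p = 0.00812). Atp5s was at −0.30 (SE 0.07, adjusted p = 0.00398) and passed in 17 of those 23 fits. By sign, 16 of 17 members were lower with ORX in KO and 14 of 17 with library-size scaling.

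Between KO-sham and WT-sham 17 of 17 complex V members had a higher sign under either scaling, and 2 were called, against 2.48% of all genes, both in the stalk and membrane part. Atp5f1, subunit b of the peripheral stalk (chromosome 3, from 105942698 to 105960099), had 9.10, 9.23 and 9.42 log2 CPM (lowest, median, highest) in WT-sham and 9.35, 9.55 and 9.66 in KO-sham. WT-sham replicate 2 was the one WT-sham library within the range of KO-sham, and the log2 fold change was 0.28 (SE 0.06, adjusted p = 0.00219 by edgeR). Atp5h, subunit d of the stalk, had 7.15, 7.38 and 7.49 in WT-sham and 7.55, 7.73 and 7.84 in KO-sham, without overlap, and a log2 fold change of 0.33 (SE 0.07, adjusted p = 0.00267). Its count is uncertain because of 3 near-identical copies, and that of Atp5f1 because of 1 copy and the opposite-strand genes Gm42890 and Wdr77.

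In spinalis 7 of 17 complex V members were called higher in KO-DHT than in WT-DHT, against 5.13% of all genes: 3 of 5 in the F1 part, 1 of 3 in the c ring and 3 of 8 in the stalk and membrane part. Atp5f1 had 8.79, 8.87 and 8.95 log2 CPM (lowest, median, highest) in WT-DHT, 9.16, 9.26 and 9.32 in KO-DHT, 8.92, 9.12, 8.92, 8.81 and 8.83 in WT-empty, and 8.96, 9.02, 9.07, 8.98 and 9.11 in KO-empty. KO-DHT was above every other group, and WT-empty and KO-empty overlapped. Between KO-DHT and WT-DHT Atp5f1 differed by 0.37 (SE 0.06, adjusted p = 2.7e-05 by edgeR), the smallest p of a member in this comparison, and its interaction was 0.27 (adjusted p = 0.0807, not called). Atp5h differed by 0.37 (SE 0.06, adjusted p = 5.3e-05), Atp5d by 0.41 (adjusted p = 6.6e-04) and Atp5j2 by 0.32 (adjusted p = 9.3e-04), each without overlap. With DHT in KO 2 of 17 were called, against 2.86%. Atp5g1 had 7.77, 7.76, 7.83, 7.86 and 8.01 log2 CPM in KO-empty and 8.17, 8.23 and 8.32 (lowest, median, highest) in KO-DHT. The groups did not overlap, and it rose by 0.39 (SE 0.06, adjusted p = 1.8e-04). Atp5a1 rose by 0.31 (SE 0.07, adjusted p = 0.00674).

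**Figure D3:**
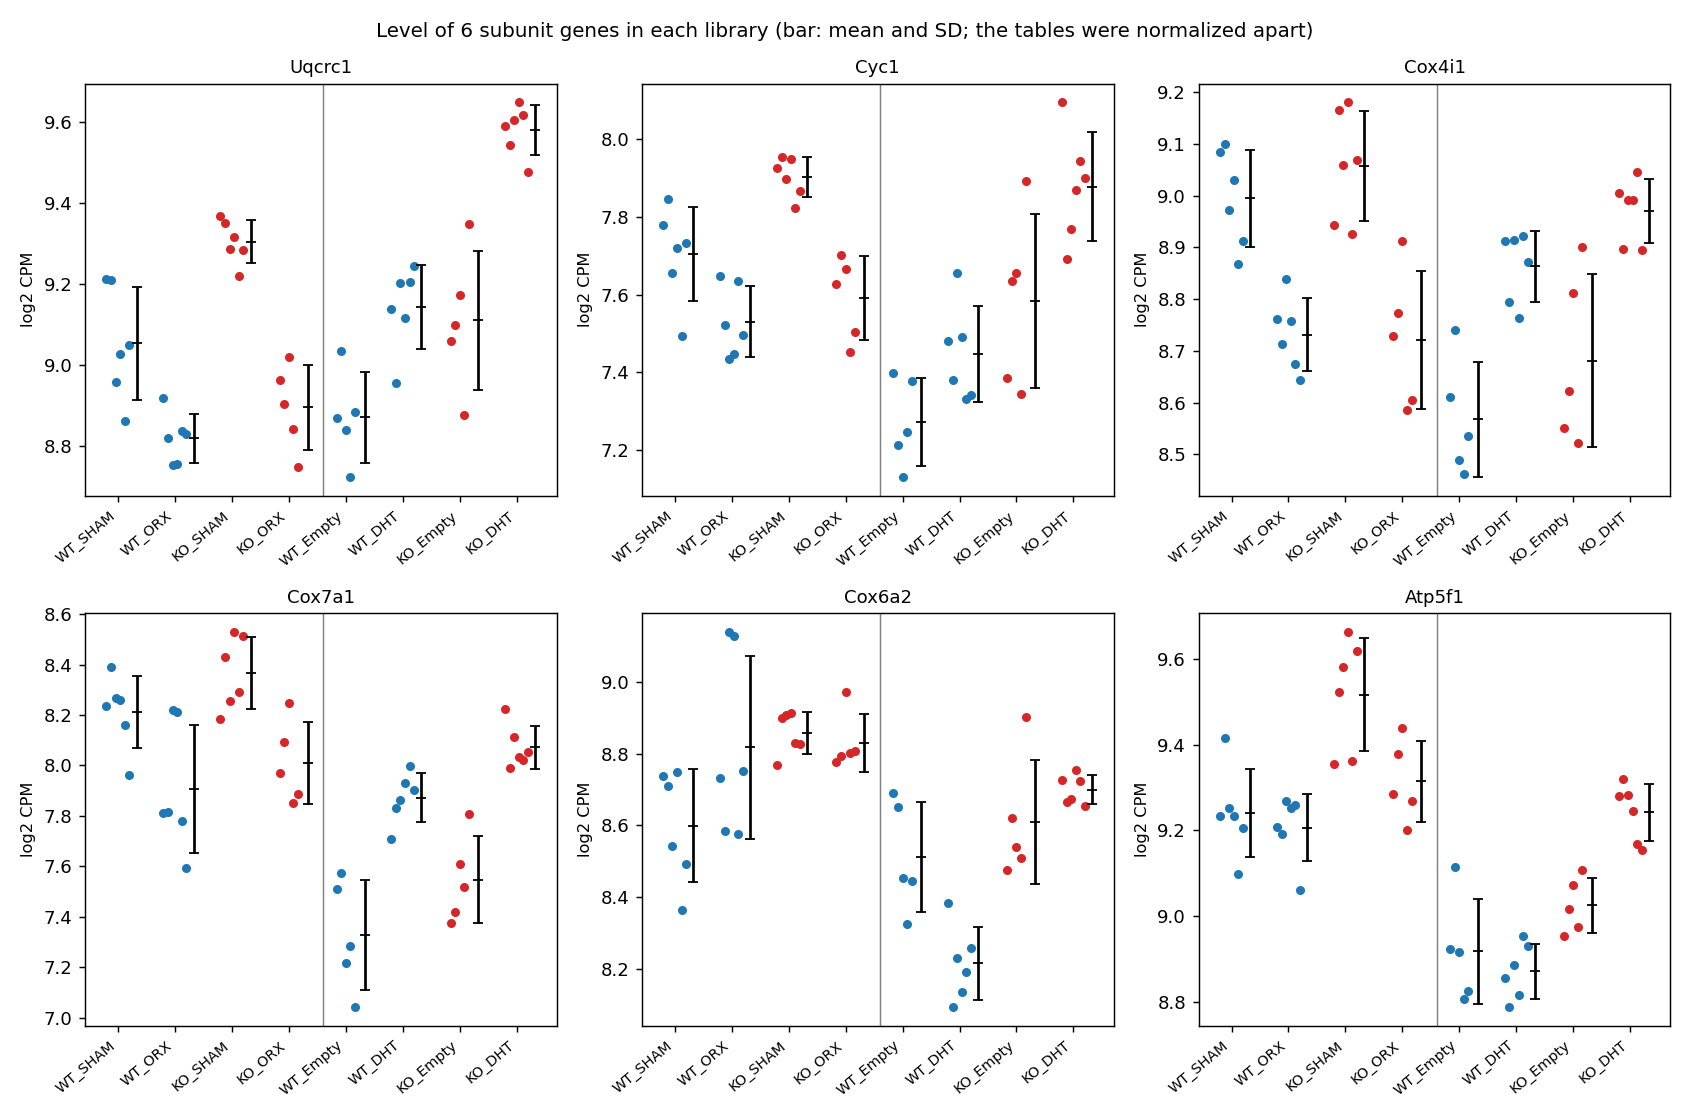
Log2 CPM of 6 members in each library, with mean and SD of each group. Gastrocnemius and spinalis were normalized apart.

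The interaction of genotype and ORX was called for 0 of 43 members by edgeR (adjusted p at most 0.05) against 0.0228% of all genes, with 10 at an unadjusted p under 0.05, 1 called by DESeq2 and 0 by limma-voom. Its sign was lower in 39 of 43, with a median of −0.14, or −0.07 with library-size scaling and −0.07 without WT-ORX replicates 3 and 4. The smallest p belonged to Cox8b at −0.53 (SE 0.15, adjusted p = 0.16), or −0.31 without those libraries (adjusted p = 0.358). Next came Atp5s at −0.29 (adjusted p = 0.263), Atp5g1 at −0.34 (adjusted p = 0.34), Atp5h at −0.28 (adjusted p = 0.353) and Uqcrb at −0.28 (adjusted p = 0.386). An unequal response to ORX was therefore not detected by edgeR or limma-voom for any single member, although DESeq2 called 1 and more members passed in KO than in WT. With all libraries Cox8b had opposite signs in the genotypes, at 0.23 with ORX in WT and −0.29 in KO, neither called. That alone is not a larger response in KO. The rise in WT rested on WT-ORX replicates 3 and 4 (9.41 and 9.35 log2 CPM), and almost none of it was left without them. For the interaction of genotype and DHT, 34 of 43 had a higher sign and the median was 0.12, or 0.16 with library-size scaling. After Cox6a2 and Atp5f1, the smallest p belonged to Uqcrfs1 at 0.26 (adjusted p = 0.151), Cox8a at 0.51 (adjusted p = 0.177) and Cox5a at 0.38 (adjusted p = 0.222). Without KO-DHT replicate 6 Cox8a was at 0.40 (adjusted p = 0.269).

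Without the 6 spinalis libraries of low mitochondrial share the groups are smaller, and fewer members passed by edgeR while the fold changes moved little. With DHT in WT, Cox7a1 was at 0.55 (adjusted p = 0.00227) and passed, and Cox4i1 at 0.31 (adjusted p = 0.023), Uqcrc1 at 0.28 (adjusted p = 0.0566) and Cox6a2 at −0.28 (adjusted p = 0.0887) did not. With DHT in KO, Uqcrc1 at 0.46 (adjusted p = 0.00209), Cox7a1 at 0.52 (adjusted p = 0.00244) and Atp5g1 at 0.40 (adjusted p = 0.00205) passed. Cox4i1 at 0.29 (adjusted p = 0.0283), Cox5a at 0.46 (adjusted p = 0.0172) and Cox5b at 0.40 (adjusted p = 0.0244) did not. Between KO-DHT and WT-DHT, Uqcrfs1 at 0.44 (adjusted p = 9.2e-05), Atp5f1 at 0.37 (adjusted p = 2.3e-04), Uqcrc2 at 0.40 (adjusted p = 4.3e-04), Uqcrc1 at 0.47 (adjusted p = 0.00103), Atp5h at 0.36 (adjusted p = 0.0015), Cox6a2 at 0.50 (adjusted p = 0.00168) and Cyc1 at 0.44 (adjusted p = 0.00595) passed, and Cox8a at 0.59 (adjusted p = 0.0157) did not. The interaction of Cox6a2 was 0.37 (adjusted p = 0.238), and 0 members passed for it. The ratio of Cox7a1 to Cox7a2 differed by 0.31 with DHT in WT (p = 0.0286 by exact permutation) and by 0.29 in KO (p = 0.0159), with an adjusted p of 0.114 for each, so that neither passed. In WT this p is the smallest that the remaining libraries can give, so that the lost call there cannot be read as a weaker difference. Of the regulators, Esrra with DHT in WT (0.35, adjusted p = 0.0342) and Perm1 between KO-DHT and WT-DHT (0.30, adjusted p = 0.0328) did not pass, whereas Esrra with DHT in KO (0.51, adjusted p = 0.00242), Perm1 between KO-empty and WT-empty (0.46, adjusted p = 0.00976) and Ppargc1a with DHT in WT (0.43, adjusted p = 0.00856) did.

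Other lists were read from the same fits. The other short lists hold too few genes for a share to be read against all genes. Of 40 genes listed for complex I by symbol, 8 were called lower with ORX in KO (3.58% of all genes lower). In KO-sham 4 were called higher than in WT-sham (Ndufs1 at 0.33 among them, 2.48% of all genes higher). Between KO-ORX and WT-ORX 2 were called, both higher in KO-ORX (Ndufb2 at 0.39, Ndufs1 at 0.27), near the 3.8% of all genes called in either direction. With DHT 2 were called higher in WT (Ndufs4 at 0.83, Ndufa4 at 0.30), a share below the 6.63% of all genes called higher, and 7 in KO (2.86% higher). Between KO-empty and WT-empty 1 was called, higher in KO-empty (Ndufs1 at 0.28, 4.25% of all genes in either direction). In KO-DHT 12 were called higher (5.13% higher) and 1 lower than in WT-DHT. The interaction with DHT called 1, lower (Ndufs4 at −0.40, 3.24% of all genes in either direction). Of 4 complex II subunits, 2 were called higher in KO-sham (Sdha at 0.31, Sdhd at 0.25) and 4 in KO-DHT, 1 was called lower with DHT in WT (Sdhb at −0.32), and Sdhb was called for the interaction with DHT (0.41, adjusted p = 0.0116 by edgeR). Of 6 subunits of complexes III to V encoded in mitochondrial DNA 2 were in the tables. With ORX mt-Co1 was called lower in WT (−0.32) and in KO (−0.48) and mt-Cytb in KO (−0.37), and with DHT mt-Co1 was called higher in WT (0.40) and in KO (0.42). Of 6 assembly genes of complex III, Ttc19 was called lower with ORX in WT (−0.33) and KO (−0.32) and Uqcc1 in KO (−0.28), Uqcc1 was called higher in KO-sham (0.39) and KO-DHT (0.42), and Bcs1l in KO-DHT (0.25). Of 20 measured assembly genes of complex IV, Cox10 (−0.30), Taco1 (−0.33) and Lrpprc (−0.27) were called lower with ORX in KO, Ndufa4 higher with DHT in WT and KO (0.40 in KO; a component of complex IV, it is counted in both lists), and Cox14 (0.30) and Taco1 (0.38) higher in KO-DHT. Of 4 assembly genes of complex V, Atpaf2 was called lower with ORX in KO (−0.23) and higher with DHT in WT (0.36), and Tmem70 higher in KO-DHT (0.26). For complex II, the mitochondrial genes and the assembly genes, 0 passed by edgeR in the comparisons not mentioned; their counts by other tools were not computed.

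Of 13 regulators of mitochondrial genes, Esrra, Perm1 and Ppargc1a were followed. Esrra, which encodes oestrogen-related receptor alpha, fell with ORX by 0.40 in WT (SE 0.06, adjusted p = 2.0e-05 by edgeR) and by 0.46 in KO (SE 0.06, adjusted p = 1.3e-05), with every ORX library below every sham library of its genotype. With DHT it rose by 0.34 in WT (adjusted p = 0.00733, passing in 12 of the 22 fits without 1 library) and by 0.56 in KO (adjusted p = 1.5e-04), and its interaction was 0.22 (adjusted p = 0.425). Perm1, a muscle regulator of these genes, fell with ORX by 0.41 in WT (adjusted p = 2.5e-04) and by 0.42 in KO (adjusted p = 5.1e-04), again without overlap. Between KO-DHT and WT-DHT Perm1 was at 0.33 (adjusted p = 0.00554, passing in 16 of the 22 fits without 1 library), and between KO-empty and WT-empty it was at 0.35 (adjusted p = 0.0132, not called by edgeR, called by DESeq2). Ppargc1a was not called in any comparison by the edgeR fit of all libraries (−0.14 with ORX in WT, −0.18 in KO, 0.36 with DHT in WT, 0.25 in KO), and of the other 10 regulators 0 were called in any of the 10 comparisons.

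Marker lists of fibre and cell types were read in the same way. Slow fibre markers had median log2 fold changes of −1.25 with DHT in WT and −1.70 in KO (0 of 6 with a higher sign in each), 0.36 with ORX in WT (6 of 6 higher), 0.24 with ORX in KO (5 of 6) and 0.55 between KO-empty and WT-empty (6 of 6), with 0 of 6 called in any comparison. The same markers had a higher sign in 6 of 6 between KO-sham and WT-sham (median 0.21) and between KO-ORX and WT-ORX (0.18). Between KO-DHT and WT-DHT the sign was higher in 4 of 6 (0.04). Brown adipocyte markers had a median of 1.36 between KO-DHT and WT-DHT (5 of 5 higher, 0 called), a value that KO-DHT replicate 6 carries, since the summed CPM had a median of 19.0 in KO-DHT and 21.8 in WT-DHT. With DHT these markers were at −1.01 in WT (0 of 5 higher) and at 0.59 in KO (4 of 5), the latter with the same library in KO-DHT. Of the 3 fast myosins Myh1 was called lower with ORX in WT (−0.61) and in KO (−0.61). Of the skeletal muscle markers, Mb and Des were called lower with ORX in both genotypes and higher with DHT in WT, Tnnt3 lower with ORX in KO, Acta1 and Des lower in KO-sham than in WT-sham, Acta1, Ckm, Des and Tnnt3 lower in KO-ORX than in WT-ORX, Tnnt3 lower in KO-empty, and Acta1 lower in KO-DHT. Of the markers of other cells, Pecam1 (endothelium) was called higher with DHT in WT, Dcn (fibroblast) higher with DHT in WT and in KO, and Pdgfra (fibroblast) lower with ORX in WT and with DHT in WT, and 0 markers of white adipocytes, brown adipocytes, red blood cells, immune cells, nerve and heart passed in any. White adipocyte markers had a higher sign in 6 of 6 between KO-DHT and WT-DHT (median 0.54), and in 5 of 6 between KO-ORX and WT-ORX (0.48). Red blood cell markers had medians of 0.72 with DHT in WT (5 of 5 higher), −0.51 with DHT in KO (0 of 5), 0.92 between KO-empty and WT-empty (5 of 5) and −0.43 between KO-DHT and WT-DHT (0 of 5). In gastrocnemius they were at −0.41 with ORX in WT (0 of 5) and 0.46 between KO-ORX and WT-ORX (5 of 5). Immune markers had 0.50 between KO-empty and WT-empty (4 of 4 higher) and −0.43 with DHT in KO (0 of 4). In KO-empty the highest value lay far above the median for both of these lists, and whether the same library gave both is not stated here. The summed CPM of KO-empty (median, highest) was 168.3 and 704.2 for red blood cell markers and 105.1 and 253.3 for immune markers. In KO-DHT the medians were 203.3 and 84.54.

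Promoter sequence of GRCm38.p6, credited to RefSeq, was matched by gene name for 30 of the 43 members and read from 250 bases before to 50 bases after the transcription start, on both strands. The core of nuclear respiratory factor 1, GCATGCGC, which overlaps with its own reverse complement, was in 7 of 30 members (Uqcr11, Uqcrc1, Cox6a1, Atp5g2, Atp5k, Atp5l and Cycs), or 23.3% against 3.05% of 27025 genes. The core of GABP, ACTTCCGG, was in 4 (Uqcr11, Uqcrh, Cox8a and Atp5h), or 13.3% against 4.31%. The element of oestrogen-related receptors, TCAAGGTCA, was in 1 (Atp5g3), or 3.33% against 0.466%. A match describes letters, and binding was not tested. Stretches around a match, capitals marking it, lie on the minus strand at chr6:50566596-50566655 for Cycs, chr5:115349085-115349144 for Cox6a1, chr10:80406854-80406913 for Uqcr11 and chr2:73911344-73911404 for Atp5g3, the last pair with the match in reverse orientation.
Cycs: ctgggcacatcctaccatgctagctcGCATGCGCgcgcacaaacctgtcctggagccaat
Cox6a1: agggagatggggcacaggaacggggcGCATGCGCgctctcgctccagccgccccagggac
Uqcr11: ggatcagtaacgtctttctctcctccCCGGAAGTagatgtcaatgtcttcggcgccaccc
Atp5g3: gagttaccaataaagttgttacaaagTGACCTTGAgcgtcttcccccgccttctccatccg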

How the data were processed

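The counts per gene that the authors deposited were used as given, for 45 of 46 labelled samples. Upstream, reads were aligned to GRCm39 with STAR 2.7.1b and counted with featureCounts (Subread 2.0.0), with SAMtools 1.9 and Picard 2.20.2. Symbols, coordinates and exon lengths came from GENCODE M21 on GRCm38, matched by Ensembl identifier. Each experiment was fitted apart in edgeR 4.0.16 (R 4.3.3) with TMM scaling, a quasi-likelihood F test and 4 groups, and p was adjusted by Benjamini-Hochberg over all genes of the table. An adjusted p of at most 0.01 counted as called for treatment and genotype, and at most 0.05 for interactions. Every adjusted p of a gene is from edgeR unless DESeq2 is named, and every adjusted p of an isoform ratio is from exact permutation. Log2 ratios of isoforms (prior count of 2) were compared by exact permutation, adjusted over 24 tests. DESeq2 1.42.0, limma-voom (limma 3.58.1), library-size scaling, a filter on low counts, fits of the compared groups alone, a replicate block and fits without each library were the alternatives. Figures were drawn with matplotlib 3.10.9 in Python 3.11.15.

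Genes named in the text are the isoform pairs, Cyc1 and Cycs, in each comparison the 3 called members with the smallest p in each direction, in each interaction the 5 members with the smallest p, the highest and lowest per kb of each complex, Actn3, called genes of other lists with at most 5 called, and Ppargc1a, Esrra and Perm1. Further members were named after their values were seen. Members and lists were chosen with earlier results of these data known. The edgeR fit was tested on simulated data. The result of the complex I list with ORX in WT is not reported here.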

Additional observations from a re-analysis of the deposited data

Results flagged for a closer look

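In 28 measures and 224 groups, the distance of the lowest or highest library to its neighbour was set against the range of its group, and 16 gaps, several of them in the same library, were larger than a Dixon test allows; about 1 in 20 groups would be marked by chance. KO-empty replicate 5 had a member median of 7.89 log2 CPM (next 7.71), a log2 ratio of Cox7a1 to Cox7a2 of 0.336 (next 0.098), and Cox5a at 6.66 (next 6.28) and Cox5b at 7.86 (next 7.52). KO-DHT replicate 6 had a log2 ratio of Cox6a2 to Cox6a1 of 3.36 (next 4.37), Cox6a1 at 5.30 (next 4.38) and Cox5a at 6.52 (next 6.84).

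Of the same ratio, KO-ORX replicate 1 had 4.71 (next 5.14). For Cox7a1 to Cox7a2, WT-sham replicate 5 had 0.285 (next 0.170) and KO-sham replicate 3 had −0.040 (next 0.188). Single genes stood apart in WT-ORX replicate 6 (Atp5f1 9.06, next 9.19), KO-sham replicate 5 (Atp5s 3.61, next 3.91), KO-sham replicate 4 (Cox6a1 3.97, next 3.73), KO-ORX replicate 3 (Cox5a 6.36, next 6.07, and Cox6a2 8.97, next 8.81) and WT-DHT replicate 5 (Cox8a 5.00, next 4.64). The response of Cox6a2 to DHT differed between the genotypes by 0.384 in a test of the interaction.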

How the results depend on the processing

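Counts of members called, with the values of the alternatives that moved them and the range over fits without 1 library, were as follows. ORX in WT (5): 2 with library-size scaling, 2 in a fit of the compared groups, 2 without WT-ORX replicates 3 and 4 (an alternative added after the data were seen), range 1 to 8. ORX in KO (12): 19 by DESeq2, 2 with library-size scaling, 6 in a fit of the compared groups, range 5 to 13. Genotype in sham (5): 8 by DESeq2, 10 without WT-ORX replicates 3 and 4, range 3 to 8. Genotype after ORX (0): 1 by DESeq2, 1 with library-size scaling, 1 with at least 10 counts in every library, range 0 to 1. Genotype by ORX (0): 1 by DESeq2, range 0 to 0. DHT in WT (4): 2 with library-size scaling, 2 in a fit of the compared groups, 1 without the 6 spinalis libraries of low mitochondrial share (also added after the data were seen), range 2 to 5. DHT in KO (8): 16 by DESeq2, 5 in a fit of the compared groups, 3 without those 6, range 3 to 13. Genotype with empty implants (0): 1 by DESeq2, 1 with library-size scaling, range 0 to 1. Genotype with DHT (16): 21 by DESeq2, 17 by limma-voom, 22 with library-size scaling, 13 without those 6, range 11 to 19. Genotype by DHT (1): 2 by DESeq2, 3 with library-size scaling, 0 without those 6, range 0 to 1, with 0 called in 19 of 22 such fits. Isoform ratios (4 passed): 4 with a prior count of 0.5, 0 without those 6, range 2 to 6. Without those 6 the smaller groups limit how small a p by exact permutation can be, so that this 0 does not show a lost difference.

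With the replicate number as a block, 4 (ORX in WT), 12 (ORX in KO), 6 (sham), 1 (after ORX) and 0 (interaction) were called; numbers only share a number, and 7 of 23 libraries correlated best with one of their own number. The block was not run for DHT, whose columns carry no label number.

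Left out singly, these libraries moved a count by more than 1.5 times. For ORX in WT: WT-sham replicates 1 (2 called), 2 (1), 3 (3), 4 (3) and 5 (8), and WT-ORX replicates 2 (3), 3 (2), 4 (2) and 6 (1). For ORX in KO: KO-sham replicates 2 (5), 3 (5), 4 (7) and 6 (5), and KO-ORX replicates 1 (5), 4 (6) and 5 (6). In sham: KO-sham replicates 2 (3) and 5 (8), and WT-sham replicates 4 (3) and 5 (3). After ORX: KO-sham replicate 1 and WT-ORX replicates 1, 5 and 6 (1 each). For DHT in WT: WT-empty replicates 1, 3, 4 and 5 and WT-DHT replicates 3, 4 and 5 (2 each). For DHT in KO: KO-empty replicates 1 (3), 2 (3), 3 (4), 4 (3) and 5 (13), and KO-DHT replicates 1 (3), 2 (4), 3 (3) and 4 (5). With empty implants: WT-empty replicates 1 and 2 and KO-empty replicate 2 (1 each). For isoform ratios: WT-sham replicate 5 (2). Of 2138 values for named genes 1896 gave the same call, 186 were weaker, 56 stronger and 0 reversed. The cause was not tested.

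The groups are small, and counts of calls moved when single libraries were left out. A member that missed the threshold in 1 genotype and passed in the other is no evidence of a difference, which the interactions test. Bulk RNA of a whole muscle does not tell fibre types or cells apart, the knockout is global, and protein and respiration were not analysed here. Counts of members with near-identical copies or opposite-strand neighbours are uncertain.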
